A study of Mus musculus with 2 samples.

Results

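The replication-dependent histone genes are the protein-coding genes for the linker histones H1f1 to H1f5 and for the core histones whose symbols begin H2ac, H2bc, H3c or H4c followed by a number. By these symbols 62 of the 21774 protein-coding genes placed on the main chromosome sequences of the RefSeq mouse table were taken: 5 H1, 17 H2A, 16 H2B, 12 H3 and 12 H4 genes. Of these, 52 lie on chromosome 13 and 10 on chromosome 3. A gene was counted as having a KMT2D peak when the summit of a peak lay inside it or within 5 kb of either end, and a peak shared by neighbours was counted once. The ChIP-seq data are from HT22, an immortalised line from mouse hippocampus. The cells were a wild-type clone, sampled at 70% confluency, with no agent named in the labels. From these cells came 1 anti-KMT2D ChIP library and 1 input library, and the authors deposited 1 peak list made from the pair. Cells without the KMT2D SET domain, which the series also describes, were not analysed here.

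KMT2D is a large enzyme that methylates lysine 4 of histone H3, mostly at enhancers and also at promoters. Histones package DNA into nucleosomes: H2A, H2B, H3 and H4 form the core, and H1 binds the linker DNA. The replication-dependent genes supply histones in S phase, lie in clusters, lack introns and make mRNAs that end in a stem-loop instead of a poly(A) tail. Their transcription and mRNA processing take place at nuclear histone locus bodies organised by NPAT. In mammals the main cluster also lies among many tRNA genes, which RNA polymerase III transcribes.

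The deposited list held 3738 peaks, 3706 of them on the autosomes, X or Y. Fold is the authors' value for the ChIP signal over background at the summit and is used only within this list. The median fold of the list was 4.45 (interquartile range 3.50 to 5.75). A whole ChIP fragment count could be solved from fold and p-value for 3687 peaks (98.6%). The interval given with a fold is the exact 95% Poisson interval of this count, for counting error only. With 1 library of each kind there is no replicate check and no test between ChIP and input beyond the peak caller's own. A peak list gives no expression, so the hippocampal label could not be checked by transcript level. None of 6 neuronal markers (Rbfox3, Map2, Tubb3, Syp, Dcx and Snap25) had a summit within 5 kb. The upper limit of a count of 0 was taken as 3 divided by the number of genes. This approximation is rough for so few genes, and here it gives a share of up to 50%. Of 4 progenitor markers Nes and Vim had a summit within 5 kb, and Sox2 and Pax6 did not. None of 3 glial markers (Gfap, Olig2 and Aif1) did, where the approximation reaches 100% and is of no use. Of all protein-coding genes 10.1% had a summit within 5 kb, and lists this short cannot tell cell types apart.

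Promoter sequences are printed for the 6 members whose annotated start, among those with a peak, lay nearest to a summit. They show what the start of such a gene looks like beside the place where KMT2D was found. Each runs from 250 bases before the start to 50 after it, in the direction of transcription, from RefSeq's GRCm38.p6, the same assembly as mm10. The H4c1 window is chr13:23761200-23761499 on the minus strand, that of H4c8 chr13:23530794-23531093 on the plus strand, and that of H3c13 chr3:96268404-96268703 on the plus strand. The H2ac18 window is chr3:96245247-96245546 on the plus strand, that of H3c14 chr3:96246435-96246734 on the plus strand, and that of H2bc18 chr3:96269450-96269749 on the plus strand. Capitals mark each match, on either strand, to 3 short strings known from histone promoters. The TATA string was searched as TATAAA. The string that the NF-Y factor binds was searched as CCAAT. The octamer known from H2B promoters was searched as ATTTGCAT.
H4c1: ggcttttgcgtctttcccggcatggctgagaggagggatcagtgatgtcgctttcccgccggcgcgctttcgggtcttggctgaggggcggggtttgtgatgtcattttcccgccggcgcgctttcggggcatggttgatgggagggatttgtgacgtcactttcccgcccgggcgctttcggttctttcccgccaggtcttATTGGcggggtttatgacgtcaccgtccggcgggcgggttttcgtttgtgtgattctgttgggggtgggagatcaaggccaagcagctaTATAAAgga
H4c8: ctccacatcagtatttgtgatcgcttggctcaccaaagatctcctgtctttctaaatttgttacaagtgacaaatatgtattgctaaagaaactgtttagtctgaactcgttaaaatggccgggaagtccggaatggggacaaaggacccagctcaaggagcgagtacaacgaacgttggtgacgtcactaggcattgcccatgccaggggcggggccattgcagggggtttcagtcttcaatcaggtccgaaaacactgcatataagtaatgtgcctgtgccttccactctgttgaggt
H3c13: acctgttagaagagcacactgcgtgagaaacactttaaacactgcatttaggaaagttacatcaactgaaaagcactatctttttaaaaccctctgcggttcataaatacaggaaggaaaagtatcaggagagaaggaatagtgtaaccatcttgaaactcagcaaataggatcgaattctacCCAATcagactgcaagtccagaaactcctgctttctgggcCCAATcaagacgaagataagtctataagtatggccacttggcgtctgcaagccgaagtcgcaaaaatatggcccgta
H2ac18: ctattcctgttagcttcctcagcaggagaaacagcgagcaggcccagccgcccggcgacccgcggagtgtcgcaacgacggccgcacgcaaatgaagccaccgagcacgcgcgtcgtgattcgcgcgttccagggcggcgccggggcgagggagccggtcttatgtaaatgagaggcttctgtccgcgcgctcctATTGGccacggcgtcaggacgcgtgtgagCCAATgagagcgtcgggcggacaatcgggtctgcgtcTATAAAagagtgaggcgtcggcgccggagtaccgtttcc
H3c14: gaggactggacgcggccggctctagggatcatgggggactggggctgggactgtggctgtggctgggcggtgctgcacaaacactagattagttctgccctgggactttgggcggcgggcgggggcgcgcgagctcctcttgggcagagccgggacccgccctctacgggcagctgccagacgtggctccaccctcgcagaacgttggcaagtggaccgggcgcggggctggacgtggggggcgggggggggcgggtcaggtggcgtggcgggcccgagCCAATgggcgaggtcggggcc
H2bc18: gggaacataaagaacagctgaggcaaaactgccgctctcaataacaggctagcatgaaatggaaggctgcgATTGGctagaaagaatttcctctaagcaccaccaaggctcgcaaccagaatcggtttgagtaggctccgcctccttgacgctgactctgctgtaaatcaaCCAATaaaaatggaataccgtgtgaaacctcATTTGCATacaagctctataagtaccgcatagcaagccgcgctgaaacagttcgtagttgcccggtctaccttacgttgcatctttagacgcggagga
The H4c8 window held none of the 3 strings as searched, though it holds TATAAG. The H4c1 window shared 138 bp with its peak. The other 5 windows shared none with theirs, because 4 of those summits lay farther into the gene and the H2bc18 summit lay 831 bp upstream, inside H3c13.

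Of the 62 histone genes, 13 (21.0%) had a KMT2D summit within 5 kb, where 10.1% of all protein-coding genes did (2189 of 21774). These 13 genes shared 7 peaks, so they are not 13 separate events. Of the 7 summits, 4 lay inside a histone gene, 2 lay within 300 bp of one, and the last lay in a tRNA gene. The histone genes are short, with a median length of 491 bp against 17219 bp for all protein-coding genes. Measured from the gene start, which takes length out, 10 of the 57 histone genes with a start in the RefSeq promoter table had a summit within 5 kb (17.5%), against 5.84% of protein-coding genes. Members just inside the 5 kb limit were H2bc13 at 4684 bp, H4c2 at 4158 bp and H3c8 at 4156 bp. Just outside were H2ac19 at 5347 bp and H2ac13 at 5385 bp. Within 1 kb there were 8 histone genes (12.9%) at 6 peaks, against 8.29% of protein-coding genes, and the same 8 within 2 kb (8.82% of protein-coding genes). Within 10 kb there were 19 (30.6%) at the same 7 peaks, against 12.1%. Widening the window past 5 kb added neighbouring genes but no further peak. When the −log10 q had to reach the list's median, 5 histone genes were left (8.06%), against 4.65% of protein-coding genes. Among peaks whose fold reached the 75th percentile the same 5 were left, against 2.48%. Without peaks at small RNA genes 12 were left (19.4%, against 9.76%), and without peaks of high background all 13 were (against 9.96%).

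**Figure D1:**
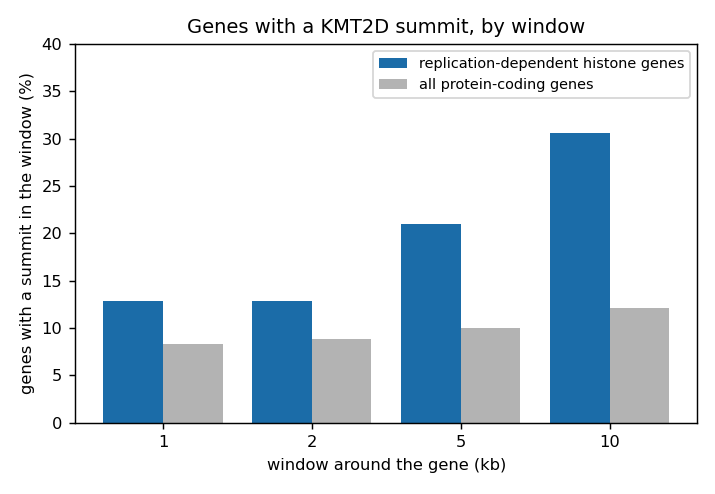
Share of genes (%, vertical axis) with a KMT2D summit inside the gene or within 1, 2, 5 or 10 kb of it (horizontal axis), for the 62 replication-dependent histone genes (blue bars) and all 21774 protein-coding genes (grey bars). At 5 kb the bars stand at 21.0% and 10.1%, and neighbouring histone genes share peaks.

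Counts differed between the 3 clusters, without a test. Clusters were made of members with less than 1 Mb between neighbours, which divided chromosome 13 into a first cluster of 22 genes over 328 kb and a second of 30 genes over 404 kb. The chromosome 3 cluster held 10 genes in 50.3 kb. Only 1 of the 22 genes of the first cluster had a summit within 5 kb, and that summit lay in a tRNA gene. In the second cluster 7 of 30 genes shared 2 peaks. On chromosome 3 5 of the 10 members had a summit within 5 kb, at 4 peaks in 23.1 kb. These shares were 4.55%, 23.3% and 50% in that order, beside the 10.1% of all protein-coding genes.

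**Figure D2:**
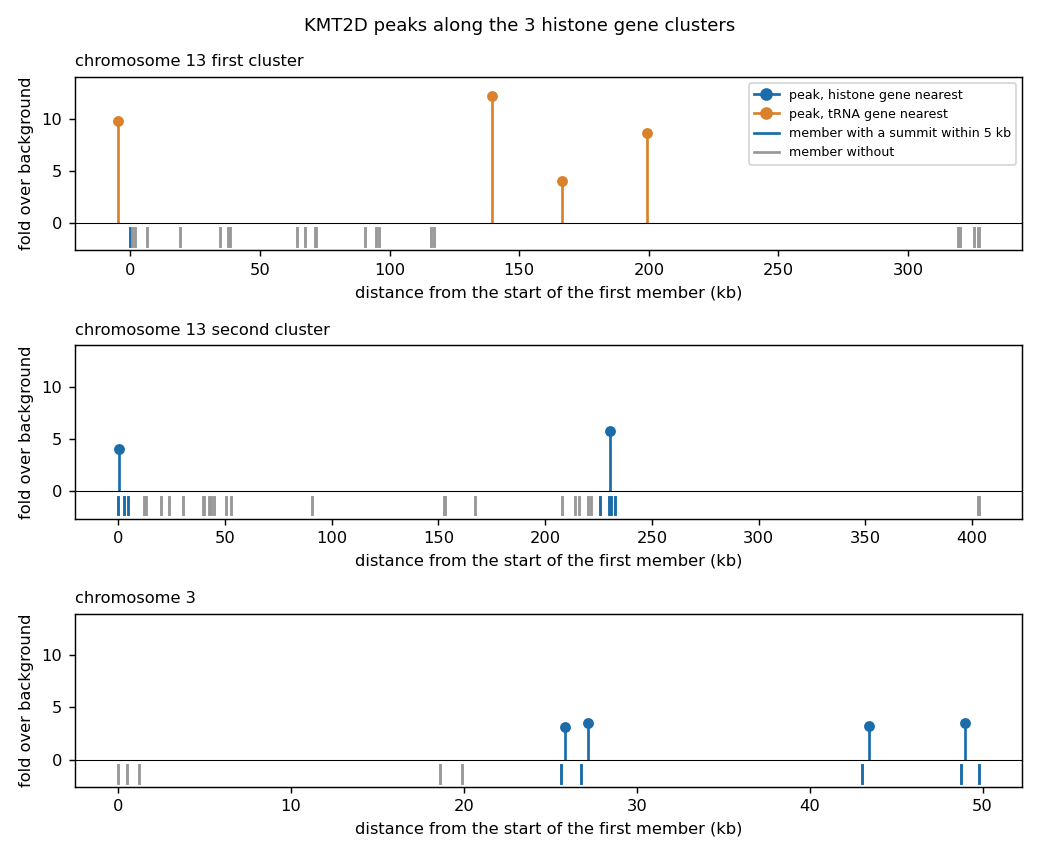
Fold over background of each peak (vertical axis) along the 3 clusters (horizontal axis, kb from the start of the first member). Ticks below 0 are histone genes, blue with a summit within 5 kb and grey without; stems are peaks, blue with a histone gene nearest and orange at a tRNA gene. The first cluster carries orange stems only, and the chromosome 3 cluster 4 blue stems between 3.15 and 3.53.

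The strongest of the peaks with a histone gene nearest lay between H4c1 and H3c1, neighbours for a core H4 and a core H3 protein. It spanned chr13:23761362-23761617, 256 bp, with its summit 295 bp upstream of the H4c1 start and 341 bp from H3c1. Its fold was 5.75 (95% Poisson interval 3.94 to 8.13), from 30 ChIP fragments over a background of 4.39. This fold lay just above the 75th percentile of the list. It was the only one of these peaks to overlap no histone gene, and it lay in the gap between the pair. H1f1, for a linker histone, lay 2124 bp from the same summit, and H4c2 lay 4158 bp away. The next members, H3c2 at 8704 bp and H2ac4 at 9952 bp, were outside the window.

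The other peak of the second cluster lay wholly inside H4c8, a core H4 gene, at chr13:23531155-23531357. At 203 bp it was as narrow as any peak of the list, and its summit lay 218 bp downstream of the H4c8 start. Its fold was 4.03 (2.54 to 6.12), from 20 fragments over a background of 4.21, the lowest fragment count of the 7 peaks. H2ac10 (core H2A) at 2613 bp and H3c8 (core H3) at 4156 bp were counted through this peak. A methionine tRNA gene, n-TMcat9, lay 843 bp from the summit, farther than H4c8. No peak lay between this summit and that beside H4c1, 230282 bp apart, a stretch that holds 25 of the 30 genes of the cluster. Among the 25 are H2ac10, H3c8, H4c2 and H4c1, which were counted through these summits at its ends.

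On chromosome 3 each of the 4 peaks overlapped a histone gene, and 3 of them lay wholly inside it. The peak at chr3:96245612-96245894 lay inside H2ac18, a core H2A gene, with its summit 224 bp past the gene start. Its fold was 3.15 (2.06 to 4.63), from 24 fragments over 6.93. Inside H3c14, a core H3 gene, the peak at chr3:96246893-96247186 had its summit 393 bp past the start and 1357 bp from that in H2ac18. Its fold was 3.53 (2.42 to 4.99), from 30 fragments over 7.78. The peak at chr3:96263023-96263427 covered 295 bp of H4c14, a core H4 gene, and had its summit 16 bp outside it. Its fold was 3.19 (2.14 to 4.59), from 27 fragments over 7.78. The peak at chr3:96268813-96269150 lay inside H3c13, another core H3 gene, with its summit 215 bp past the start. Its fold was 3.52 (2.46 to 4.91), from 33 fragments over 8.65, and H2bc18, a core H2B gene, lay 831 bp from that summit. These 4 folds differed from each other by less than their counting intervals, and all were below the median of the list.

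**Figure D3:**
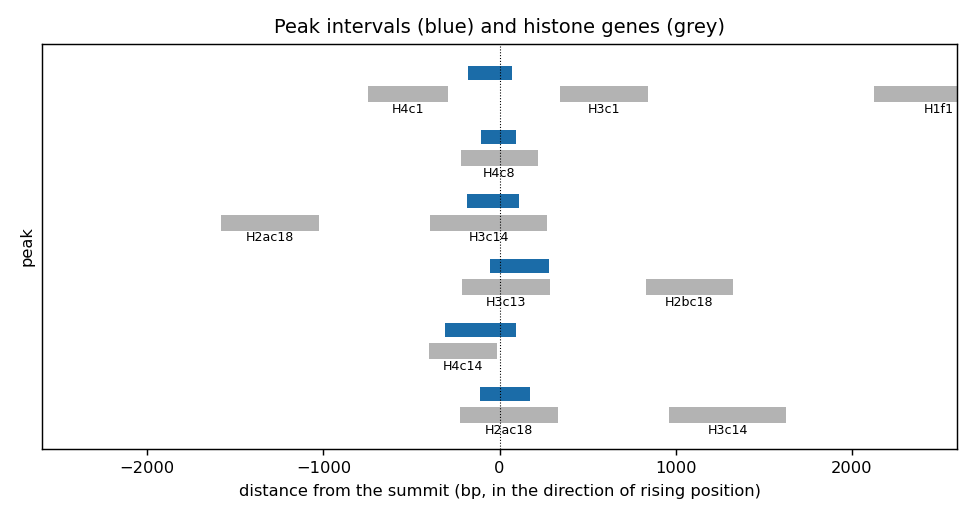
Peak intervals (blue) and histone genes (grey) around the 6 summits with a histone gene nearest, in bp from the summit (horizontal axis), ordered by fold from the bottom up. The intervals at H2ac18, H3c13, H3c14 and H4c8 lie wholly inside the gene, that at H4c14 runs past one end, and that at H4c1 lies between 2 genes.

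The other 5 genes of the chromosome 3 cluster, H2ac21, H2ac20, H2bc21, H3c15 and H2ac19, had no summit within 5 kb. H3c15 and H2ac19 lie on the opposite strand to H3c14 and H2ac18, and their nearest summit was that in H2ac18, at 6594 and 5347 bp. The promoter windows of H3c14 and H3c15 were alike, with 31 edits between them and an identity of 89.7%. The H3c14 peak lay outside its window, inside the gene, and the sequences of the genes themselves were not compared. How reads that match several places were handled is not given in the sources used here. Of the other pairs, read in the direction of transcription, only H4c17 with H4c18 (99%) and H4c11 with H4c12 (87%) reached an identity of 80%. None of these 4 genes had a summit within 5 kb. Some neighbours on opposite strands, such as H2ac12 and H2bc12, have windows that overlap on the chromosome. Such shared bases do not show in this comparison.

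That a whole peak lay inside so short a gene was rare in the list, a count made after the positions were seen. Among protein-coding genes from 203 bp, the narrowest peak, to 1 kb, 4 of 1550 held a whole peak (0.258%). All 4 were histone genes, from 57 histone genes of that size. None of the other 1493 did, a count of 0 that allows a share of up to 0.201%. A summit within 5 kb was found for 16 of the 1550 (1.03%), of which 13 were histone genes. Of the other 1493 genes 999 belong to olfactory, vomeronasal, taste and trace amine receptor families, which few cell types express. Outside these families 0 of 494 genes held a whole peak, which allows a share of up to 0.607%. A summit within 5 kb was found for 3 of the 494 (0.607%), Tmem203, Pf4 and Coa3, against 10.1% of all protein-coding genes. These 494 genes thus had few summits near them at all. Other short genes that few cell types express were not set apart, so the 494 are a limited comparison for the histone genes.

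All 4 peaks in or within 5 kb of the first chromosome 13 cluster lay at tRNA genes. The peak counted for H2bc13 lay at chr13:21710928-21711281, with its summit inside the methionine tRNA gene n-TMcat7 and 4684 bp from H2bc13. Its fold was 9.78 (6.86 to 13.5), from 34 fragments over a background of 2.58, the highest of the 7 peaks. The other 3 peaks in this cluster had summits inside n-TIaat11 (fold 12.2, interval 8.74 to 16.7), n-TLcaa2 (8.63, 5.88 to 12.3) and n-TIaat10 (4.07, 2.26 to 6.88). These 3 peaks lay at least 21882 bp from the nearest member. H4bc24, a coding gene whose histone-like symbol falls outside the rule, was not counted and lay 17827 bp from the n-TIaat11 summit. Of the 32 tRNA genes in or within 5 kb of the cluster, 4 had a summit within 500 bp, against 33.7% of all 403 tRNA genes. Between the clusters lay 8 more peaks, each inside a tRNA gene or 11 bp from one, at 13788 bp or more from any member. In the second cluster neither of 2 tRNA genes had a summit within 500 bp, and the chromosome 3 cluster held no tRNA gene.

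The 12 tRNA peaks of the chromosome 13 region had folds from 4.07 to 12.2 with a median of 7.30. The 6 peaks with a histone gene nearest had folds from 3.15 to 5.75 with a median of 3.53, so the ranges overlapped. ChIP fragment counts were alike, with a median of 28.5 in both sets and ranges of 12 to 43 and 20 to 33. Backgrounds were not: the median was 2.72 fragments at the tRNA peaks (2.19 to 5.19) and 7.36 at the histone peaks (4.21 to 8.65). These backgrounds are the values solved from the authors' fold and p-value. The value of 2.19, at n-TIaat11 and n-TIaat10, was the lowest of the whole list and recurred at peaks elsewhere. The background was highest on chromosome 3, at 6.93 to 8.65, against 6.05 for the median of all peaks. Whether this background or the number of gene copies had a part in the lower folds was not tested. Peaks elsewhere with backgrounds in the chromosome 3 range numbered 600 with those 4 included, and their folds ran from 2.50 to 17.4 with a median of 3.99. The lowest fragment count called among them was 20.

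**Figure D4:**
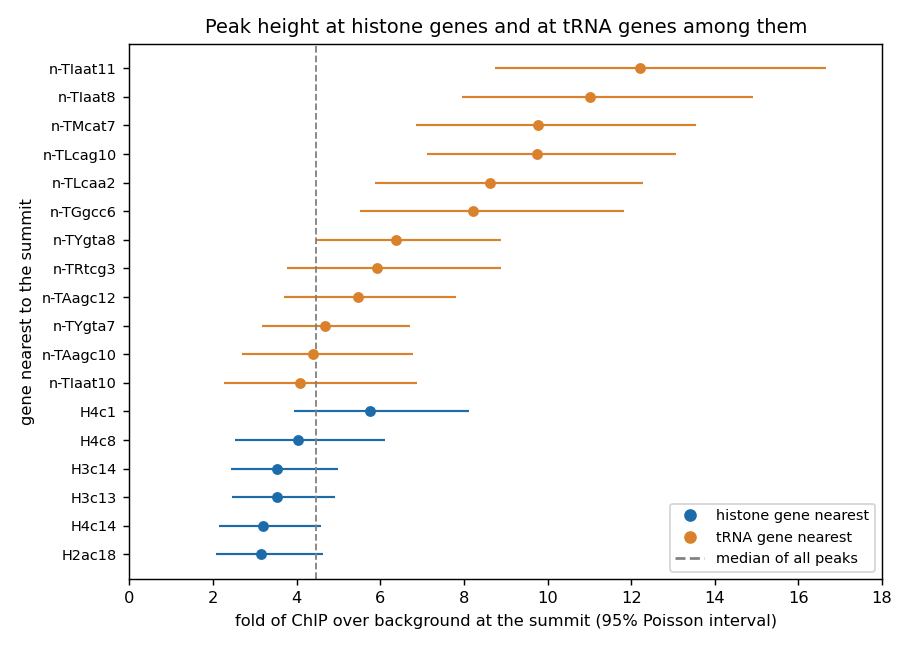
Fold over background (horizontal axis) with its 95% Poisson interval for the 6 peaks with a histone gene nearest (blue) and the 12 tRNA peaks in and between the chromosome 13 clusters (orange), each named by its gene. The dashed line is the median of all peaks, 4.45; H4c1 is the one histone peak to the right of it.

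**Figure D5:**
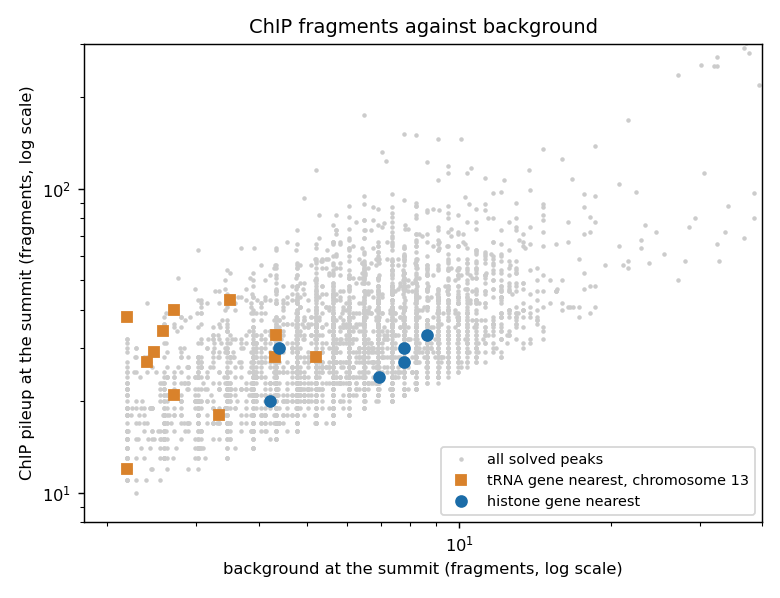
ChIP fragments (vertical axis, log scale) against background fragments (horizontal axis, log scale) at the summit. Grey points are all peaks with a solved fragment count inside the axes, blue points the 6 histone peaks and orange squares the 12 tRNA peaks of chromosome 13. The sets span like heights, 20 to 33 and 12 to 43 fragments, and differ in background.

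By histone type, a summit within 5 kb was counted, beside the 10.1% of all protein-coding genes, for 4 of 12 H3 genes (33.3%: H3c1, H3c8, H3c13 and H3c14) and 4 of 12 H4 genes (33.3%: H4c1, H4c2, H4c8 and H4c14). Among the H2A genes 2 of 17 (11.8%) were counted, H2ac10 and H2ac18. Among the H2B genes 2 of 16 (12.5%) were, H2bc13 and H2bc18, and both of these shares lay near that of all protein-coding genes. Of the linker genes 1 of 5 was, H1f1, while H1f2, H1f3, H1f4 and H1f5 had their nearest summit at 22013, 23770, 90515 and 68805 bp. No H2B or H1 gene had a summit inside it, but only 4 of the 62 members did, so this absence says little about these types. H2bc18 was the only H2B gene with a summit within 1 kb. The differences between types rest on a few shared peaks and were not tested. H2ac1 and H2bc1, whose older names Th2a and Th2b mark them as testis forms, lay 172893 and 172181 bp from the nearest summit. The 49 members without a peak within 5 kb had a median distance of 42350 bp to the nearest summit.

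Member promoters held the 3 strings more often than protein-coding promoters in general. Entries in the promoter table were found for 57 members; H2bc21, H2bc4, H3c1, H3c7 and H4c14 had none. Searched on both strands, the CCAAT string was present in 49 of 57 member promoters (86.0%), against 42.3% of 17492 protein-coding genes with an entry. All H1, H2A, H2B and H3 promoters held it, and 3 of 11 H4 promoters did. The TATA string was present in 34 of 57 (59.6%, against 14.8%) and the octamer in 13 of 57 (22.8%, against 1.90%). The octamer was found in 7 of 14 H2B and 6 of 17 H2A promoters and in none of the H1, H3 or H4 windows. Some H2A and H2B neighbours on opposite strands have overlapping windows, so 1 match can be counted for both genes. In the pairs H2ac1 with H2bc1, H2ac8 with H2bc8 and H2ac12 with H2bc12, both windows held the octamer. The member counts of all 3 strings are therefore not counts of separate sequences. None of these strings contains another. Among the 11 members with a summit within 5 kb and an entry, 9 held the CCAAT string (81.8%), 3 the TATA string (27.3%) and 1 the octamer (9.09%). Among the 46 without a peak the counts were 40 (87.0%), 31 (67.4%) and 12 (26.1%). Several of the 11 share a peak, and H2bc13 was counted through a tRNA peak. They are therefore not 11 separate events, and the differences between the sets were not tested. The 3 with the TATA string were H1f1, H2ac18 and H4c1. In H2ac18 and H4c1 it began 11 and 41 bases after the annotated start. Only the exact TATAAA was counted. The printed windows of H4c8, H3c13 and H2bc18 hold TATAAG, so a missing match does not mean that no TATA-like string was there. How often TATAAG occurs in the other windows was not counted. The median GC content was 45.3% in member promoters and 56.3% in all, and 55.8% in the 8 on chromosome 3 against 45% in the 49 on chromosome 13.

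Of 34 factors of histone transcription, mRNA processing and deposition, 5 (14.7%) had a summit within 5 kb, near the 10.1% of all protein-coding genes, and 3 of these 5 had it inside the gene. The summit lay inside Slbp, for the protein that binds the stem-loop of histone mRNA, with a fold of 3.47 (2.59 to 4.57). Cpsf2, for a subunit of the complex that cuts histone pre-mRNA, had one inside it with a fold of 4.98 (3.68 to 6.58). Nfyc, for a subunit of the factor that binds CCAAT, had one inside it with a fold of 3.03 (2.18 to 4.10). The summits counted for Lsm10, of the U7 particle, and Chaf1a, of a histone chaperone, lay nearer to Stk40 (646 bp) and Sh3gl1 (59 bp). Npat, Casp8ap2, Lsm11, Hinfp and Pou2f1 were among the 29 without a summit in the window. Of 14 other histone genes outside the symbol rule, 2 (14.3%) had one. These were H3f3a, for the replacement histone H3.3, 240 bp from a summit with a fold of 3.98 (2.63 to 5.81), and Macroh2a2, for a macroH2A variant, with a summit inside the gene and a fold of 5.92 (4.13 to 8.25). H2ax, H2az1, H3f3b and H4f16, a lone H4 gene on chromosome 6, were among the 12 without.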

How the data were processed

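KMT2D ChIP and input libraries (1 each) came from wild-type HT22 cells. Per the submitters' processing notes, reads were handled with Bowtie2, Picard and MACS2 on mm10; neither versions nor settings are given in the sources read. The authors deposited 1 peak list in narrowPeak layout. Per peak, the deposited columns hold the fold (ratio of ChIP to background), 2 −log10 columns (p-value, then q-value) and a score that repeats the −log10 q and was not used. Depth per library is unknown from the list. Fragment counts were solved from (n + 1)/(b + 1) = fold and the Poisson tail above n for a mean of b, accepted within 0.001 of the deposited −log10 p.

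Gene positions came from RefSeq GRCm38.p6, with 49595 of 49997 genes on main chromosome sequences; starts and promoters came from the RefSeq promoter table. Summits are the interval start plus the summit offset, counted from 1. Replicates were absent, so no test was made. Every member with a summit within 5 kb was named, with the nearest gene of any type. The members and lists were chosen with earlier results of these data known. The procedures were tested on simulated data. Alternatives were other windows, the peak interval, stricter thresholds, peaks left out, and distance to the gene start. Python 3.11.15, pandas 2.3.3, scipy 1.17.1 and edlib 1.3.9.post1 were used.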

Additional observations from a re-analysis of the deposited data

How the results depend on the processing

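The count of 13 members fell to 8 with a window of 1 kb and 8 with 2 kb, and to 5 when a −log10 q of at least the median was required and 5 when a fold of at least the 75th percentile was. In those stricter lists 2 of the 7 peaks remained, that at H4c1 and the tRNA peak beside H2bc13, with a median fold of 7.76 in either list in place of 3.53, and no chromosome 3 peak. The 5 remaining members (8.06%) stand beside 4.65% and 2.48% of protein-coding genes. By construction these lists hold the stronger peaks only. The share of all protein-coding genes moved from 10.1% (Wilson 95% interval 9.66 to 10.5) to 8.29%, 8.82% and 12.1% with windows of 1, 2 and 10 kb, and to 5.84% by distance to the gene start. Without peaks at small RNA genes 12 members and 6 peaks were left, beside 9.76% of protein-coding genes. Using the whole interval, or leaving out peaks with a background over 20 fragments, left the 13 members and 7 peaks. No paired analysis was possible because each group has 1 library. A gene with no listed peak may still be bound below the peak caller's threshold.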
